A study of Mus musculus with 6 samples.

Results

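The Slit, Robo, netrin, Dcc and Unc5 guidance genes were followed in the 2 tissue layers of the developing mouse bladder neck and urethra. The set holds 10 genes, taken by gene symbol from the array annotation and not by their values: the ligands Slit1, Slit2 and Slit3, their receptors Robo1 and Robo2, the netrins Ntn1 and Ntn4, and the netrin receptors Dcc, Unc5b and Unc5c. They are 10 of the 18193 genes for which a probe set names exactly 1 gene, and they are read by 21 probe sets. Each gene is given by its brightest probe set (highest mean over the arrays), and the other probe sets serve as a check. Of the 10 genes, 8 lay above the filter on dim probe sets, set at the 40th percentile of all mean signals, and Slit3 and Robo2 lay under it.

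Urothelium, the epithelial layer, was measured on 3 arrays (numbers 1, 2 and 5 in the sample titles) and mesenchyme, the tissue around it, on 3 arrays (numbers 1, 2 and 3). All embryos were wild-type FVB/N mice at embryonic day 13, Theiler stage 21, of unknown sex. After trypsin treatment of the dissected bladder neck and urethra, mesenchyme and epithelium were separated by needle, and RNA of unpooled samples went through 2 rounds of amplification before hybridisation to the Affymetrix Mouse Genome 430 2.0 array. Nothing in the labels ties the arrays to separate embryos, so the p-values measure the spread between these samples, which may be technical.

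Slits are secreted proteins that bind Robo receptors and repel growing axons and migrating cells. Netrins are laminin-related secreted proteins that attract cells through Dcc and repel them through Unc5 receptors, alone or together with Dcc. Both systems also act outside the nervous system: in mouse, Slit2 and Robo2 restrict the ureteric bud to a single site, Robo and Unc5b receptors act in growing vessels, and netrin-4 is a component of basement membranes that binds laminin.

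The layers carried the markers of their labels, and 1 array stood apart. All 10 epithelial markers were higher on every urothelial array than on any mesenchymal one, and their summed normalized signal was 210463 to 247271 in urothelium, against 83169.9 on mesenchyme 1, 15576.5 on mesenchyme 2 and 3074 on mesenchyme 3. Of 10 mesenchymal markers, 7 were lower on every urothelial array, with sums of 33090 to 50686 in urothelium and 207654 to 249089 in mesenchyme. On mesenchyme 1, Twist1 read 467, against 3389 and 4294 on mesenchyme 2 and 3, while Col1a1 read 27273, against 5443 and 5090. Across tested genes, which are not independent replicates, mesenchyme 1 correlated with mesenchyme 2 and 3 at r = 0.784 and 0.755, while mesenchyme 2 and 3 correlated at 0.981. Markers of liver, heart, lung, pancreas and epidermis summed to 246655 on mesenchyme 1, 936 and 947 on mesenchyme 2 and 3, and 316 to 1057 in urothelium. These markers were listed as met in an earlier account of the same arrays, so their sum is not separate evidence on mesenchyme 1. Because mesenchyme 1 correlated less with the other mesenchymal arrays, differences between the layers are given with all 6 arrays and without mesenchyme 1. In these bulk samples, fewer cells of a type and less RNA per cell cannot be told apart.

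Values below are quantile-normalized signals in array units, and differences are urothelium minus mesenchyme in log2(signal + 16), where the change of a dim gene reads smaller than it is. Standard errors (SE), 95% intervals and adjusted p-values come from limma over all tested genes with Benjamini-Hochberg adjustment, with n = 3 arrays in urothelium and 3 in mesenchyme, or 2 in mesenchyme where mesenchyme 1 was left out. Levels are not compared between genes, because probe sets differ in brightness.

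Without mesenchyme 1, Dcc, Unc5c and Slit2 were lower in urothelium and Ntn4 was higher, while Robo1 and Unc5b did not differ beyond the spread of the arrays. With all 6 arrays no guidance gene passed adjusted p 0.05 in limma: 0 of 8 tested genes were called, where 5.98% of all 13717 tested genes were (1.95% higher and 4.03% lower in urothelium). At an unadjusted p under 0.05 there was 1, Ntn4, against 19.5% of all tested genes, and limma without an intensity trend or with robust variances also called 0. Without mesenchyme 1, 4 of 8 were called, 3 lower and 1 higher in urothelium, where 14.5% of 13587 tested genes were called (8.17% lower and 6.37% higher). The same 4 genes had an unadjusted p under 0.05, against 26.4% of all tested genes. Without mesenchyme 1, 1 of 8 had every urothelial array above every mesenchymal one, against 23.1% of tested genes, and 4 of 8 had every urothelial array below, against 22.3%. With no filter, 0 of 10 were called with all 6 arrays, where 3.97% of all genes were, and 2 of 10 without mesenchyme 1, where 10.3% were; at an unadjusted p under 0.05 the counts were 1 of 10 (16.9% of all genes) and 5 of 10 (22.1%). No test of these differences in shares was made. The median difference of the 8 genes was -0.53 with all 6 arrays, beside 0.12 over all tested genes, and -0.45 without mesenchyme 1, beside 0.02.

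**Figure D1:**
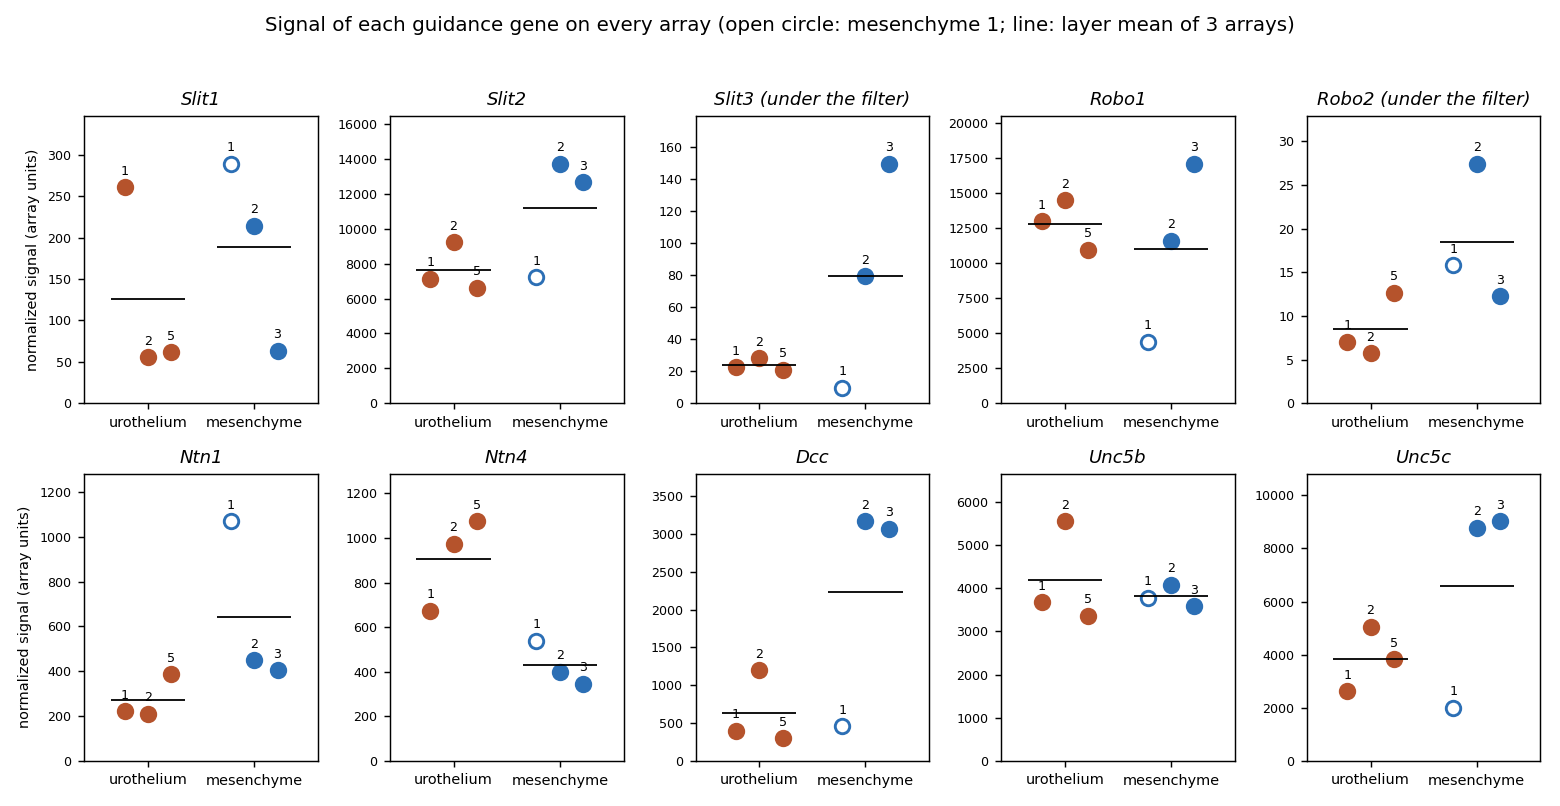
Normalized signal (array units, linear axes from 0) of each of the 10 guidance genes on the 3 urothelial arrays (left) and the 3 mesenchymal arrays (right), numbered as in the sample titles, with the mean of each layer as a line and mesenchyme 1 as an open circle. Every urothelial array lies above every mesenchymal one for Ntn4, and below for Ntn1. For Dcc and Unc5c, mesenchyme 2 and 3 lie above all other arrays and mesenchyme 1 does not.

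Sequences are shown here for Slit2, Unc5c and Ntn4, which were among the genes past the threshold without mesenchyme 1, so that their start regions can be compared. Dcc, which also passed, is not shown. Each window runs from 250 bases before to 50 bases after an annotated start, as listed by RefSeq for build GRCm38.p6. Of the 10 genes, 7 had such windows. Capitals mark matches to a GC box (GGGCGG) or a TATA box (TATAAA) on either strand.
Slit2, chr5:47982905-47983204, plus strand: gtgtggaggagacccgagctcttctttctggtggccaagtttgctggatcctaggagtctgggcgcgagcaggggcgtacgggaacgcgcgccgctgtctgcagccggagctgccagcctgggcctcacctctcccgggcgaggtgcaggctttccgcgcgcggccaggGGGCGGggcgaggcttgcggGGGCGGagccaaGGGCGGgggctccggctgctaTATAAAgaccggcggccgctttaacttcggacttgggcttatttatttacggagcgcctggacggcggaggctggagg
Unc5c, chr3:141465314-141465613, plus strand: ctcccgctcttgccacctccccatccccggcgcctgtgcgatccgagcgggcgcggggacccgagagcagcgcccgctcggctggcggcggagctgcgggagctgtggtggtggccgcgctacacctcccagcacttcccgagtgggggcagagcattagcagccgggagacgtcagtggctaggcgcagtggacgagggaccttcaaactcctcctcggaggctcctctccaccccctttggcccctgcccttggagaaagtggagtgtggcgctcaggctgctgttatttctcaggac
Ntn4, chr10:93640799-93641098, plus strand: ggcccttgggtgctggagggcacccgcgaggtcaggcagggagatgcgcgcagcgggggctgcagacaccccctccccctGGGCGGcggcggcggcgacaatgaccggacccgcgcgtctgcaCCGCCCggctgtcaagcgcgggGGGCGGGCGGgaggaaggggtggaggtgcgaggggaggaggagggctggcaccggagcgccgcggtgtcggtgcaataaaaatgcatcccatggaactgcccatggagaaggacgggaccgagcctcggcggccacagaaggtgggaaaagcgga
The Slit2 window held 3 GC boxes and 1 TATA box, whose first base lay 28 bases before the start. The Ntn4 window held 4 GC boxes, of which the last 2 overlap, and no TATA box, and the Unc5c window held neither motif. Of all 32851 windows of 300 bases, 35.7% held a GC box and 13.6% a TATA box. An E-box (CAGGTG, either strand), as bound by Zeb and Snail factors, was in none of the 3 windows and in 20.2% of all windows. The windows were rich in CpG, with 30 CpG dinucleotides in Slit2, 24 in Unc5c and 31 in Ntn4, where the median window has 7.

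Slit2 and Slit3 also share a microRNA. In the RefSeq annotation, Mir218-1 lies within Slit2 and Mir218-2 within Slit3, and Robo1 is a known target of miR-218. The mature sequences are shown with the seed, bases 2 to 8, in capitals.
mmu-miR-218-5p, chr5:48223966-48223986 in Slit2 and chr11:35616840-35616860 in Slit3, plus strand: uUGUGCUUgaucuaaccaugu
mmu-miR-218-1-3p, chr5:48224005-48224026 in Slit2, plus strand: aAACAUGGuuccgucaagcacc
mmu-miR-218-2-3p, chr11:35616882-35616903 in Slit3, plus strand: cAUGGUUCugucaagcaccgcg
The 5p arm is the same from both loci, while the 3p arms have different seeds. Mature microRNAs were not measured in these samples.

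Among the Slit ligands, Slit2 was the one with a call. Slit2 (1424659_at) read 7121, 9222 and 6630.2 in urothelium 1, 2 and 5, against 7225, 13730.1 and 12670.4 in mesenchyme 1, 2 and 3. Mesenchyme 2 and 3 were above all urothelial arrays, and mesenchyme 1 lay within their range. The difference was -0.51 ± 0.304 SE with all 6 arrays (adjusted p = 0.411, 95% interval -1.22 to 0.20). Without mesenchyme 1, Slit2 fell by 0.80 ± 0.212 SE on the log2 scale in urothelium, a 1.74-fold difference (adjusted p = 0.0488). That call was at the edge of the threshold. It held under 3 of 10 other ways of processing the 5 arrays and was lost under the other 7, among them without the filter (adjusted p = 0.0543), with no normalization (0.0933) and with median centring (0.318). The other probe sets of Slit2, 1451430_at and 1458140_at, had differences of -0.39 and -2.16 with all 6 arrays (adjusted p = 0.870 and 0.337 over all probe sets) and -1.16 and -1.28 without mesenchyme 1 (0.507 and 0.364).

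Slit3 was dim everywhere. Its probe set (1452296_at) read 22.3, 28.1 and 20.9 in urothelium, against 9.72, 79.2 and 149 in mesenchyme 1, 2 and 3. Again mesenchyme 2 and 3 were the highest arrays and mesenchyme 1 the lowest. In the fit with no filter the difference was -0.90 ± 0.691 SE with all 6 arrays (adjusted p = 0.572) and -1.65 ± 0.442 without mesenchyme 1 (adjusted p = 0.0658). Neither passed.

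Slit1, known mainly from neural tissue, varied as much within the layers as between them on its brightest probe set. This probe set (1425277_at) read 261, 55.4 and 61.5 in urothelium 1, 2 and 5, against 289, 214 and 63.2 in mesenchyme 1, 2 and 3. The layers overlapped, with a difference of -0.62 ± 0.765 SE (adjusted p = 0.692, 95% interval -2.42 to 1.18) and -0.23 ± 0.791 without mesenchyme 1 (adjusted p = 0.903). Its other probe set, 1440056_at, read 53.2, 231 and 24.7 in urothelium, against 223, 161 and 183 in mesenchyme 1, 2 and 3. The layers overlapped there too, with differences of -1.20 and -1.08 without mesenchyme 1 (adjusted p = 0.557 and 0.620 over all probe sets).

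Robo1, the Slit receptor read by the brightest of 3 probe sets (1427231_at), showed no layer difference beyond the spread of the arrays. It read 12963, 14460.1 and 10923 in urothelium 1, 2 and 5, against 4366, 11552 and 17066 in mesenchyme 1, 2 and 3. The urothelial arrays lay between mesenchyme 1, the lowest, and mesenchyme 3, the highest. The difference was 0.42 ± 0.475 SE (adjusted p = 0.668) with all 6 arrays and -0.14 ± 0.228 without mesenchyme 1 (adjusted p = 0.763, 95% interval -0.68 to 0.40), so its sign rested on mesenchyme 1. Its other probe sets, much dimmer, read in opposite directions: -1.43 for 1445549_at and 1.16 for 1457407_at with all 6 arrays, neither past the threshold (adjusted p = 0.379 and 0.421 over all probe sets), and -1.31 and 1.013 without mesenchyme 1 (0.411 and 0.445).

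Robo2, the partner of Slit2 in ureteric bud positioning, was at the low end of the array's range. Its probe set (1458229_at) read 7.01, 5.73 and 12.6 in urothelium, against 15.8, 27.4 and 12.3 in mesenchyme 1, 2 and 3. The layers overlapped, and the difference in the fit with no filter was -0.48 ± 0.343 SE (adjusted p = 0.540, or 0.561 without mesenchyme 1). The files used here carry no detection calls, so these low readings are not shown to be above background.

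Of the netrins, Ntn4 passed without mesenchyme 1 and Ntn1 passed in neither fit. Ntn4, the basement membrane netrin, was higher on every urothelial array: its probe set (1439794_at) read 673, 973 and 1075 in urothelium 1, 2 and 5, against 539.7, 399 and 347 in mesenchyme 1, 2 and 3. Of all tested genes, 15.5% had every urothelial array above every mesenchymal one. The difference was 1.05 ± 0.360 SE (2.07-fold) with all 6 arrays, where it missed the threshold (adjusted p = 0.162, unadjusted p = 0.0215). Without mesenchyme 1 it was 1.27 ± 0.314 SE (2.40-fold, adjusted p = 0.0381), a call that held under 6 of 10 other ways of processing and was lost with no normalization (adjusted p = 0.0530), median centring (0.0827), no filter (0.0755) and the mean of its probe sets (0.275). The second Ntn4 probe set (1450512_at), under the filter, also had a positive difference (1.07 with all 6 arrays and 0.98 without mesenchyme 1, adjusted p = 0.605 and 0.678 over all probe sets) that rested on urothelium 5, at 163 against 5.21 to 11.1 on the other arrays.

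Ntn1, a secreted ligand of Dcc and Unc5 receptors, had its lowest readings in urothelium. Its probe set (1454974_at) read 221, 209 and 386 in urothelium 1, 2 and 5, against 1068, 448 and 403 in mesenchyme 1, 2 and 3. Every urothelial array was below every mesenchymal one, as for 13.2% of all tested genes, with the narrowest gap between urothelium 5 and mesenchyme 3. The difference was -1.10 ± 0.497 SE (adjusted p = 0.282, 95% interval -2.27 to 0.07), and -0.68 ± 0.382 without mesenchyme 1 (adjusted p = 0.328), the array with the highest reading. Its dimmer probe set (1422987_at) overlapped between the layers (-0.38, adjusted p = 0.869 over all probe sets, and -0.45 without mesenchyme 1, 0.872).

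Dcc, the attractive netrin receptor of neurons, had the largest difference of the 10 genes in both fits. Its brightest probe set (1440487_at) read 396, 1199.6 and 300.01 in urothelium 1, 2 and 5, against 456, 3166 and 3064 in mesenchyme 1, 2 and 3. Mesenchyme 2 and 3 were above all urothelial arrays, whereas mesenchyme 1 lay among them. With all 6 arrays the difference was -1.62 ± 0.855 SE (adjusted p = 0.354, 95% interval -3.63 to 0.38). Without mesenchyme 1, Dcc fell by 2.60 ± 0.572 SE on the log2 scale in urothelium, a 6.07-fold difference (adjusted p = 0.0239).

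The Dcc call without mesenchyme 1 held under all 10 other ways of processing those arrays, with adjusted p between 0.00363 and 0.0480. It rested on all but 1 of the remaining arrays: adjusted p was 0.102 without urothelium 1 as well, 0.0504 without urothelium 5, 0.147 without mesenchyme 2 and 0.143 without mesenchyme 3, and 0.000144 without urothelium 2. Of the other Dcc probe sets, 1441572_at read 4.59 to 24.4 in urothelium and 12.9, 217 and 281 in mesenchyme 1, 2 and 3 (-2.14 with all 6 arrays and -3.16 without mesenchyme 1, adjusted p = 0.373 and 0.0155 over all probe sets). The third, 1422162_at, read 214 to 389 in urothelium and 231, 402 and 423 in mesenchyme 1, 2 and 3 (-0.24 with all 6 arrays and -0.51 without mesenchyme 1, adjusted p = 0.856 and 0.647).

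Unc5c, a repulsive netrin receptor, was also highest on mesenchyme 2 and 3. It read (1449522_at) 2623, 5039 and 3828 in urothelium 1, 2 and 5, against 2006, 8781 and 9018 in mesenchyme 1, 2 and 3. Mesenchyme 1 was the lowest of all 6 arrays. The difference was -0.55 ± 0.610 SE with all 6 arrays (adjusted p = 0.657, 95% interval -1.98 to 0.88). Without mesenchyme 1, Unc5c fell by 1.27 ± 0.307 SE in urothelium, a 2.41-fold difference (adjusted p = 0.0349).

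The Unc5c call held under 8 of 10 other ways of processing and was lost with median centring (adjusted p = 0.152) and without an intensity trend (0.0638). The second probe set (1419592_at) read 1003, 1411 and 852 in urothelium, against 128, 2395 and 2483 in mesenchyme 1, 2 and 3. Its difference was 0.18 with all 6 arrays and -1.21 without mesenchyme 1 (adjusted p = 0.955 and 0.0609 over all probe sets).

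With adjustment over all probe sets in place of 1 per gene, the brightest probe set of Dcc kept its call without mesenchyme 1 (adjusted p = 0.0485), while those of Unc5c (0.0572), Slit2 (0.0890) and Ntn4 (0.0937) did not.

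The other calls without mesenchyme 1 also rested on single arrays. Without urothelium 2 as well, all 4 held, with adjusted p of 0.00176 for Unc5c, 0.00196 for Slit2 and 0.0302 for Ntn4. Without urothelium 1 as well, Ntn4 held (adjusted p = 0.0488), while Unc5c (0.0832) and Slit2 (0.161) did not. Without urothelium 5 as well, none held (0.0711 for Unc5c, 0.1003 for Slit2 and 0.0782 for Ntn4). With mesenchyme 2 or mesenchyme 3 left out as well, adjusted p was 0.228 and 0.252 for Unc5c, 0.376 and 0.295 for Slit2, and 0.193 and 0.294 for Ntn4, with the lone mesenchymal array taken to vary like the urothelial ones.

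Unc5b, a netrin receptor known from vessel sprouts, did not differ beyond the spread of the arrays. It read (1435110_at) 3671, 5546 and 3358 in urothelium 1, 2 and 5, against 3779.9, 4081 and 3575 in mesenchyme 1, 2 and 3. The 3 mesenchymal arrays all lay within the urothelial range. The difference was 0.10 ± 0.287 SE with all 6 arrays (adjusted p = 0.869) and 0.10 ± 0.287 without mesenchyme 1 (adjusted p = 0.881), with 95% intervals of -0.57 to 0.78 and -0.58 to 0.78. The intervals span differences in both directions, so equal levels are not shown.

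**Figure D2:**
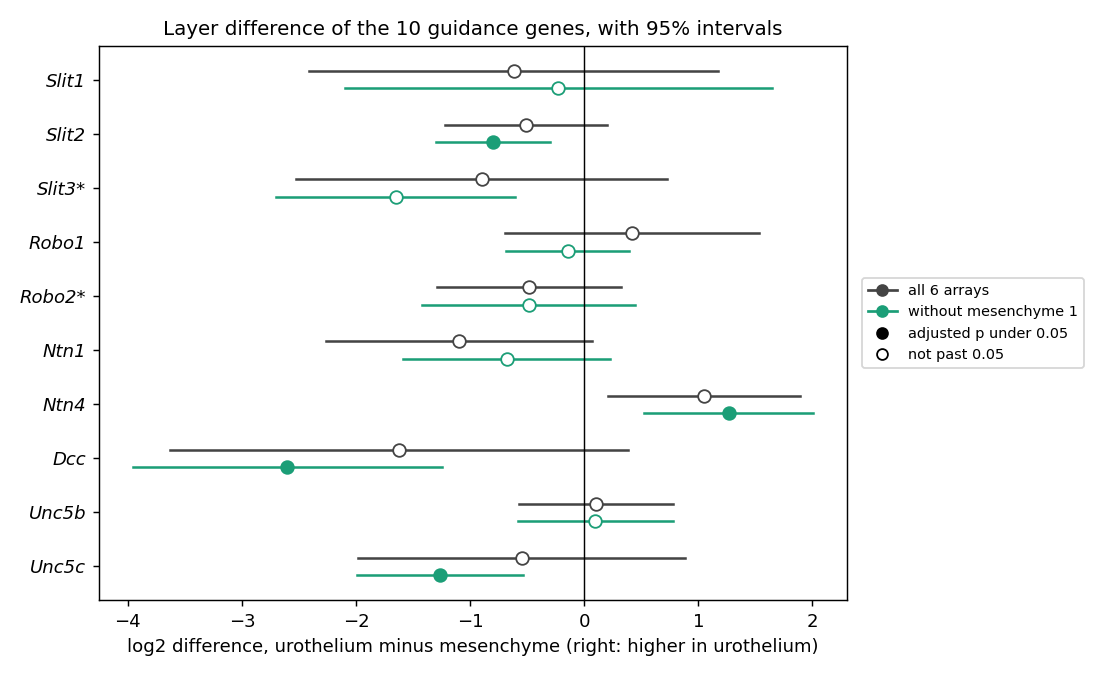
Log2 difference, urothelium minus mesenchyme, of each of the 10 guidance genes with its 95% interval (limma), with all 6 arrays in grey and without mesenchyme 1 in green. Filled points passed adjusted p 0.05; genes with an asterisk lay under the filter and come from the fit with no filter. No grey point is filled, and the filled green points are Slit2, Ntn4, Dcc and Unc5c.

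**Figure D3:**
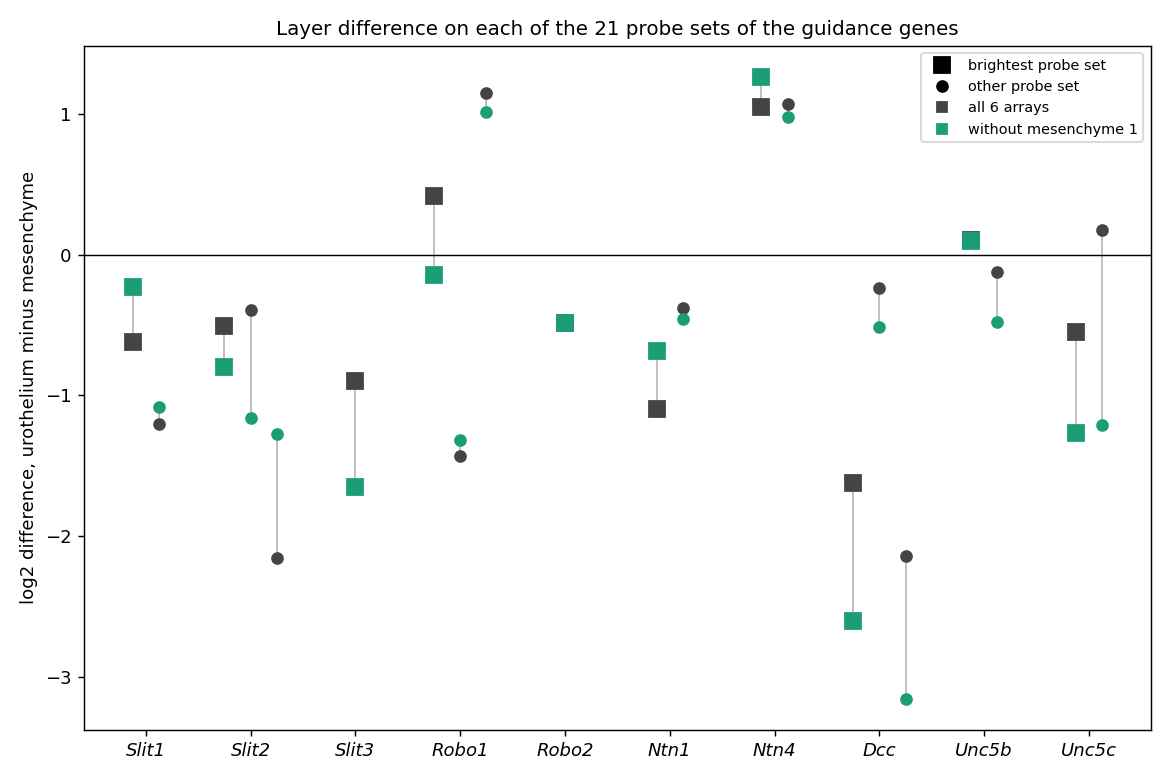
Log2 difference, urothelium minus mesenchyme, on each of the 21 probe sets, with the brightest of each gene as a square and the others as circles, with all 6 arrays in grey and without mesenchyme 1 in green. Without mesenchyme 1, all 3 probe sets of Dcc, all 3 of Slit2 and both of Unc5c lie below 0, both of Ntn4 lie above 0, and those of Robo1 lie on both sides.

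On most tested guidance genes mesenchyme 1 lay apart from mesenchyme 2 and 3. Its distance from their mean passed 1 log2 unit in 5 of 8, beside 38.5% of all tested genes. The median absolute distance of mesenchyme 1 from the mean of mesenchyme 2 and 3 was 1.24 log2 units over the 8 tested genes, beside 0.755 over all tested genes. Mesenchyme 1 lay below mesenchyme 2 and 3 by -2.73 in Dcc, -2.14 in Unc5c, -1.68 in Robo1 and -0.87 in Slit2, and above them by 1.30 in Ntn1, 1.18 in Slit1 and 0.52 in Ntn4. Unc5b lay closest, at -0.02. On Ntn1 and Ntn4, mesenchyme 1 stayed on the mesenchymal side of every urothelial array. Mesenchyme 2 and 3 themselves differed by a median of 0.169 over the 8 genes and 0.190 over all tested genes.

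Markers of several other cell types also differed between the layers. Of 10 peripheral neuron markers, 9 were measured, and all 9 were lower on every urothelial array, with sums of 1039 to 3060.3 in urothelium, against 35734 on mesenchyme 1, 74677 on mesenchyme 2 and 66759 on mesenchyme 3. Mesenchyme 1 lay above every urothelial array in this sum, but single markers differed. Prph read 425 on mesenchyme 1 against 6912 and 5213 on mesenchyme 2 and 3, while Stmn2 read 15303 against 12081 and 12210. All 10 endothelial markers were lower on every urothelial array (sums of 1229.8 to 3096 in urothelium and 19594 to 25511 in mesenchyme), and 6 of 7 smooth muscle markers were (4906 to 10851 in urothelium and 24628 to 53025 in mesenchyme). None of these markers was listed at 0, and the endothelial marker Tie1 lay under the filter. Of 8 markers of the central nervous system, 7 were measured, 4 of them under the filter, with sums of 427 to 726 in urothelium, 4120 on mesenchyme 1 and 392 to 488 on mesenchyme 2 and 3. Of 8 markers of glia and neural crest, 6 were measured, of which 1 was higher and 4 were lower on every urothelial array. Their sums were 17258 to 24734.5 in urothelium, 17842.5 on mesenchyme 1, and 13474 and 8824 on mesenchyme 2 and 3. Of 5 leukocyte markers, 2 were lower on every urothelial array, and of 4 measured erythroid markers, 2 were. Leukocyte sums were 2642 to 5937 in urothelium, 39573 on mesenchyme 1, and 10154 and 7255 on mesenchyme 2 and 3. Erythroid sums were 11380 to 50580.5 in urothelium, 17197 on mesenchyme 1, and 58162 and 58169 on mesenchyme 2 and 3. Of all tested genes, 13.2% were lower and 15.5% were higher on every urothelial array. The part of these cells in the differences of the guidance genes was not tested.

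Further ligands, receptors and partners of the pathways were lower in urothelium where they passed. The list holds 18 genes: remaining Robo, netrin and Unc5 family members, netrin-G proteins, neogenin with its ligands, Dscam, Draxin, Nell2, the Flrt proteins that bind Unc5 receptors, and glypican-1, which binds Slit. Above the filter were 12, and Robo3, Ntn3, Ntn5, Ntng2, Unc5a and Nell2 were not. With all 6 arrays 1 of 12 was lower in urothelium (4.03% of all tested genes) and 0 were higher (1.95%), with 3 at an unadjusted p under 0.05 (19.5%). Without mesenchyme 1, 4 were lower (8.17% of all tested genes) and 0 higher (6.37%), with 7 at an unadjusted p under 0.05 (26.4%). The median difference of the 12 was -0.85 with all 6 arrays and -1.23 without mesenchyme 1, beside 0.12 and 0.02 over all tested genes. With no filter, all 18 were tested. With all 6 arrays 0 were called (3.97% of all genes), with 4 at an unadjusted p under 0.05 (16.9%). Without mesenchyme 1, Draxin, Flrt2, Flrt3 and Ntng1 were lower and 0 were higher, where 10.3% of all genes were called in either direction. At an unadjusted p under 0.05 there were then 7 (22.1% of all genes), and the median difference of the 18 was -1.01.

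Draxin, a secreted protein that binds netrin and Dcc, was the gene that passed with all 6 arrays. It read 180, 124 and 59.99 in urothelium 1, 2 and 5, against 491, 583 and 532 in mesenchyme 1, 2 and 3. The layers did not overlap, and mesenchyme 1 lay with its layer. Draxin fell by 2.11 ± 0.465 SE in urothelium (4.30-fold, adjusted p = 0.0436) and fell by 2.20 ± 0.483 without mesenchyme 1 (adjusted p = 0.0238). The call with all 6 arrays was lost with an offset of 1, with no filter and with the mean of its probe sets. It was also lost when any array other than mesenchyme 1 was left out. The call without mesenchyme 1 was lost with the mean of its probe sets. Neither call was made with a filter at the 60th percentile, which leaves dimmer genes untested.

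Flrt2, a membrane protein that binds Unc5 receptors and repels cells, had the largest difference of the list without mesenchyme 1. It read 4416, 5958 and 3810.0 in urothelium 1, 2 and 5, against 8244, 23178.5 and 29935 in mesenchyme 1, 2 and 3. All urothelial arrays were below all mesenchymal ones. It missed the threshold with all 6 arrays (-1.94 ± 0.481 SE, adjusted p = 0.0649) and fell by 2.49 ± 0.252 SE in urothelium without mesenchyme 1 (adjusted p = 0.00143). It stayed past the threshold there under each further alternative run, also with mesenchyme 2 or mesenchyme 3 as the only mesenchymal array.

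Flrt3 and Ntng1 passed without mesenchyme 1. Flrt3, a relative of Flrt2, fell by 1.15 ± 0.292 SE in urothelium (adjusted p = 0.0414), having been at -0.73 with all 6 arrays (adjusted p = 0.390). Ntng1, the membrane-anchored netrin-G1, fell by 1.73 ± 0.379 SE (adjusted p = 0.0233), having been at -1.41 with all 6 arrays (adjusted p = 0.116). The Flrt3 call was lost with median centring and without an intensity trend, and the Ntng1 call with the mean of its probe sets. With mesenchyme 2 or mesenchyme 3 left out as well, the calls of Draxin, Flrt3 and Ntng1 were lost. Flrt3 and Ntng1 were also lost without urothelium 1 as well, and Flrt3 without urothelium 5. Neogenin (Neo1) and Robo4, which did not pass, were chosen for mention after their values were seen. The netrin receptor relative neogenin read 27749, 20258 and 25681 in urothelium 1, 2 and 5, against 21997, 35921 and 34563 in mesenchyme 1, 2 and 3. Its difference was -0.31 with all 6 arrays (adjusted p = 0.517) and -0.53 without mesenchyme 1 (adjusted p = 0.0813). Robo4, the Robo of endothelium, read 212, 234 and 19.3 in urothelium, against 315, 454 and 526 in mesenchyme 1, 2 and 3 (-1.80 ± 0.790 SE, adjusted p = 0.270, and -2.02 ± 0.850 without mesenchyme 1, 0.187). Its layers did not overlap, as for the 13.2% of all tested genes with every mesenchymal array above every urothelial one.

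**Figure D4:**
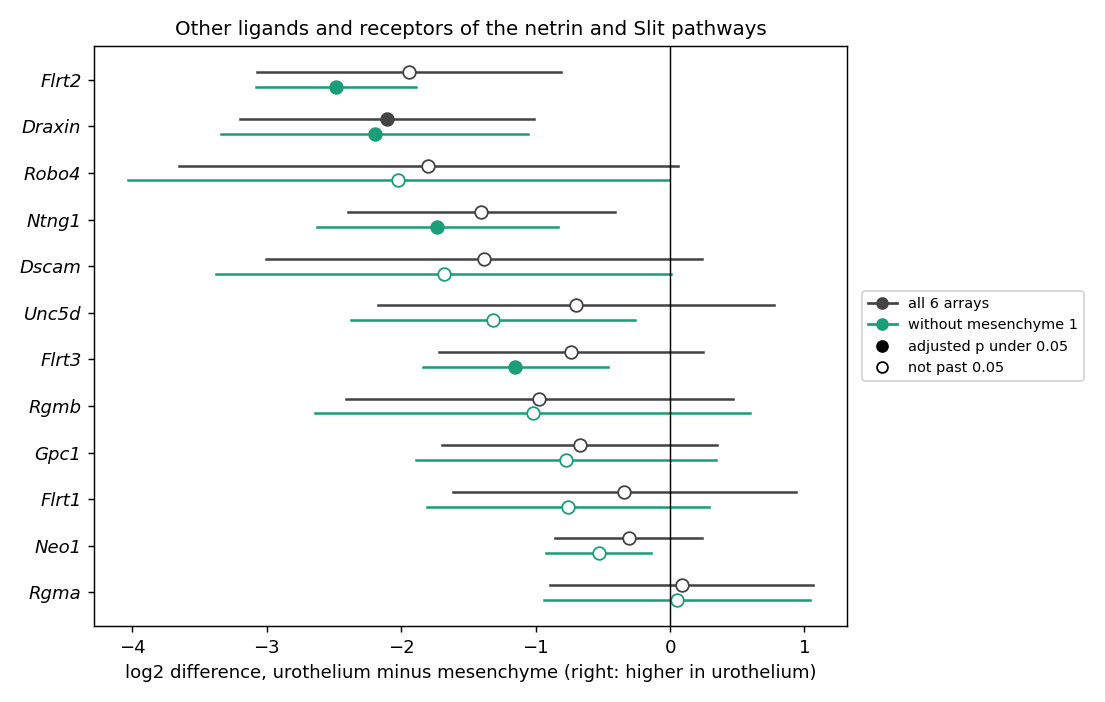
Log2 difference, urothelium minus mesenchyme, of the 12 further ligands, receptors and partners above the filter, with 95% intervals, with all 6 arrays in grey and without mesenchyme 1 in green; filled points passed adjusted p 0.05. Draxin is filled in both fits, and Flrt2, Ntng1 and Flrt3 without mesenchyme 1; no filled point lies right of 0.

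The cytoplasmic transducers of these receptors had calls in both directions without mesenchyme 1. Of 23 listed, 21 were measured and all 21 were tested, and the rest were not analysed here. With all 6 arrays 0 passed in limma (5.98% of all tested genes), with 2 at an unadjusted p under 0.05 (19.5%). Without mesenchyme 1, 1 was higher (6.37% of all tested genes) and 2 were lower (8.17%) in urothelium, with 4 at an unadjusted p under 0.05 (26.4%). The median difference was 0.04 with all 6 arrays and 0.04 without mesenchyme 1, beside 0.12 with all 6 arrays and 0.02 without mesenchyme 1 over all tested genes.

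Fyn, a Src-family kinase that acts downstream of Dcc, read 3073, 2171 and 2557 in urothelium 1, 2 and 5, against 3827, 7077 and 7168 in mesenchyme 1, 2 and 3. The layers did not overlap. It missed the threshold with all 6 arrays (-1.16 ± 0.338 SE, adjusted p = 0.104) and fell by 1.48 ± 0.245 SE in urothelium without mesenchyme 1 (adjusted p = 0.00783).

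Evl, an Ena/VASP protein of the actin cytoskeleton, fell by 0.85 ± 0.179 SE in urothelium without mesenchyme 1 (adjusted p = 0.0193) and was at -0.41 with all 6 arrays (adjusted p = 0.602). Its relatives Enah and Vasp had differences of 0.28 and -0.03 with all 6 arrays (adjusted p = 0.274 and 0.967), and 0.24 and 0.08 without mesenchyme 1 (0.249 and 0.882). Ablim1, an actin-binding protein whose Caenorhabditis elegans counterpart acts in netrin signalling, read 12099, 9919 and 12265 in urothelium 1, 2 and 5, against 10825, 7072 and 6666 in mesenchyme 1, 2 and 3. It was higher in urothelium without mesenchyme 1 by 0.73 ± 0.192 SE (adjusted p = 0.0481), and at 0.51 with all 6 arrays (adjusted p = 0.332). The Ablim1 call was lost under 7 of 10 other ways of processing those arrays, and the Evl call under 4 of 10. The Fyn call held under all 10. All 3 calls were lost when mesenchyme 2 or mesenchyme 3 was left out as well, and Ablim1 also without urothelium 1 or urothelium 5.

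Of the transducers that did not pass, those named here were chosen after their values were seen. The Slit-Robo GTPase-activating proteins Srgap1, Srgap2 and Srgap3 had differences of 0.04, -0.31 and 0.06 with all 6 arrays and 0.05, -0.26 and 0.33 without mesenchyme 1, and none passed in either fit. The small GTPases Rac1, Cdc42 and Rhoa had differences of -0.11, -0.20 and -0.18 with all 6 arrays, with standard errors of 0.200, 0.148 and 0.187. Without mesenchyme 1 the differences were 0.04, -0.10 and -0.07, with standard errors of 0.163, 0.129 and 0.174, so that of Rac1 turned sign, and none passed in either fit. Arhgap39, a Robo-binding GTPase-activating protein, had the largest difference of the list with all 6 arrays (1.62 ± 0.663 SE, 3.07-fold, adjusted p = 0.240). Without mesenchyme 1 it was 0.95 ± 0.449 SE (1.93-fold, adjusted p = 0.242), and Fyn then had the largest. Arhgap39 was read from a probe set of the _x_at kind that can match related transcripts.

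**Figure D5:**
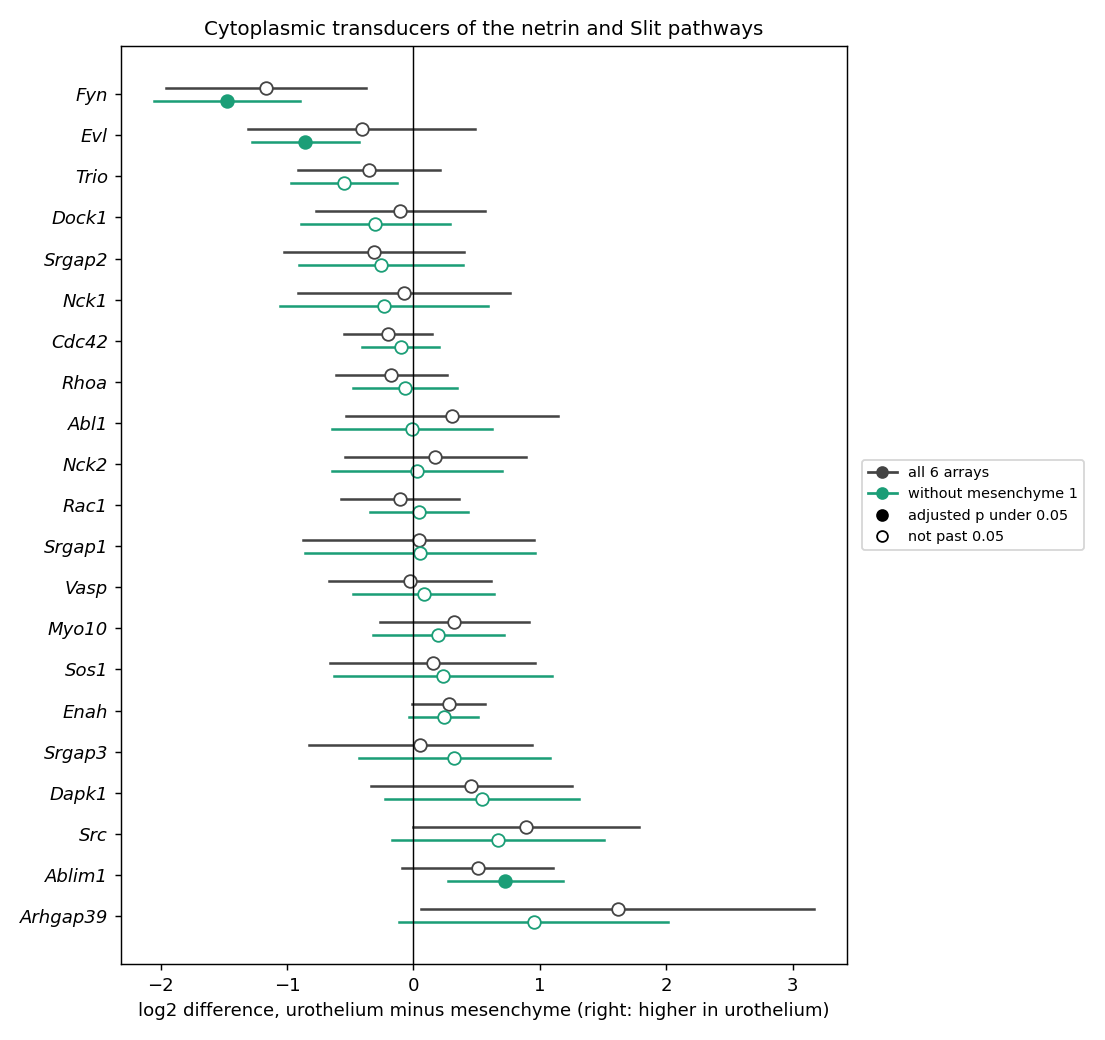
Log2 difference, urothelium minus mesenchyme, of the 21 tested cytoplasmic transducers, with 95% intervals, with all 6 arrays in grey and without mesenchyme 1 in green; filled points passed adjusted p 0.05. Filled points are Fyn and Evl, left of 0, and Ablim1, right of 0, all without mesenchyme 1.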

How the data were processed

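RNA of 3 urothelial and 3 mesenchymal samples was hybridised to 1-colour Affymetrix arrays, and samples were grouped by their titles. The deposited values are signal intensities on a linear scale, made by the authors with GCOS per the submitters' processing notes (version not given in the sources used here). On each array the mean after trimming 2% at each end was 1500, and the deposited medians ran from 126 to 254. The files hold no detection calls or background readings, so the number of arrays limits the precision.

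The intensities were quantile-normalized as log2(signal + 16). Of 45037 probe sets that are not controls, 34945 name 1 gene, 932 several and 9160 none in the platform annotation. Each gene was taken by its brightest probe set, and genes above the 40th percentile of mean log2 value were tested with limma 3.58.1 (R 4.3.3; lmFit, eBayes with an intensity trend, Benjamini-Hochberg adjustment over all tested genes). The fit was repeated without mesenchyme 1, with normalization, brightest probe sets and filter made anew on 5 arrays. Printed signals come from the normalization of all 6. The fits were tested on simulated data with the same noise on every array. These held no outlying array, so they do not show how the fits behave with an array such as mesenchyme 1.

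Alternatives were offsets of 1 and 64, no normalization, median centring, no filter, a 60th-percentile filter, averaging all probe sets of each gene, unique probe sets, eBayes without trend or robust, blocking on replicate number, and leaving out single arrays. Fits of single probe sets, and alternatives combined with leaving out mesenchyme 1, were added after seeing the data. All 10 guidance genes are named whatever their values, with genes past the threshold from lists of 18 further ligands and receptors and 23 transducers. A rule for the most alike genes applied to guidance genes past the threshold with all 6 arrays, and there were none. The genes and lists were chosen with earlier results of these data known.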

Additional observations from a re-analysis of the deposited data

How the results depend on the processing

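Over the alternatives run on the 10 guidance genes with all arrays, 158 of 165 values kept their direction and side of the threshold, 4 came to pass it and 3 turned sign, not counting fits of single probe sets. Robo1 was -0.14 without mesenchyme 1 and -1.43 on probe set 1445549_at. Unc5b was -0.0078 with the mean of its probe sets, -0.11 without urothelium 2 and -0.12 on 1453269_at, and Unc5c was 0.18 on 1419592_at. Leaving out each array in turn gave -2.60 to -1.15 for Dcc, -0.80 to -0.34 for Slit2, -1.27 to -0.19 for Unc5c, -0.14 to 0.85 for Robo1, -0.11 to 0.24 for Unc5b and 0.91 to 1.27 for Ntn4. It gave 0 to 1 guidance genes higher in urothelium and 0 to 3 lower, 0 to 4 further ligands and receptors lower, and 0 to 1 transducers higher and 0 to 2 lower. Over all genes, 820 passed (267 higher and 553 lower in urothelium), and leaving out 1 array gave 142 to 1975 (27 to 865 higher and 115 to 1110 lower).

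The further ligand that was lower with all 6 arrays, Draxin, was lost (count of 0) with an offset of 1, no filter, the mean of probe sets and the replicate block. The count was also 0 with the 60th-percentile filter, which leaves dimmer genes untested. Without mesenchyme 1, the count of guidance genes higher in urothelium was 0 with no normalization, median centring, no filter and the mean of probe sets, and the count lower was 1 with median centring and without an intensity trend. Leaving out a further array there gave 0 to 1 higher and 0 to 3 lower. The causes were not tested. With all 6 arrays, the median difference of all tested genes was 0.23 with median centring, against 0.12 with quantile normalization. Without mesenchyme 1 these medians were -0.03 and 0.02. With the replicate number as a block, 0 genes passed in either direction (0 higher and 0 lower). Only numbers 1 and 2 are shared between the layers, and the deviations of same-numbered arrays correlated at -0.05 and -0.02. Mesenchyme 1 entered the layer mean behind these deviations, so they cannot settle whether a number marks a shared embryo. The labels do not say. Slit1 had no value with the filter at the 60th percentile, and Slit3 and Robo2 had values only with no filter. Without detection calls, low signals such as those of Slit3 and Robo2 cannot be set against background.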
